A study of Homo sapiens with 42 samples.

Results

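The regions described here are stretches of the human genome at the ends of protein-coding genes whose chromatin was open in every untreated sample of 7 cancer cell lines. Accessibility was read with ATAC-seq: a transposase places sequencing adapters preferentially in open DNA, so that peaks of reads mark open stretches. Each sample came with its own list of peaks. A base counted when an interval of all 21 lists of cells given DMSO, the vehicle, covered it. Runs of such bases of at least 100 bp on chromosomes 1 to 22 and X numbered 7145, and 5681 of them (79.5%) had their centre within 1 kb of either end of a RefSeq protein-coding gene. The other 1464 are called distal. Of 19974 protein-coding genes, 6259 (31.3%) had such a gene-end region within 1 kb of an end.

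The lines were 92-1 (uveal melanoma), A375 (melanoma), 22RV1 (prostate adenocarcinoma), MV411 (acute myeloid leukemia), HCT116 (colorectal adenocarcinoma), DU4475 (invasive breast carcinoma) and RD (rhabdomyosarcoma). Each line was treated for 4 h with DMSO or with FHT-1015, a dual inhibitor of SMARCA4 and SMARCA2, in 3 biological replicates, which gave 14 groups and 42 lists. The labels give the genotype of all groups as WT, which does not describe the mutations that the cancer lines carry, and they give no dose. What sets the replicates apart, such as a culture or a day, is not given, so p-values measure the spread between these samples.

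The lists held 114291 to 431956 peaks, with a lowest −log10 p near 2 in each, so a base can be covered by a weak peak. Depth was not given, and the background pileup recovered from fold and p ranged from 0.0341 to 2.79 reads, with the lowest values, 0.0346 and 0.0341, in FHT-1015 replicates 2 and 3 of 92-1. These lists stand apart: they held 2037 and 1412 peaks with −log10 q of at least 5, against 14266 or more in the other 92-1 lists. The comparison of coverage between treatments is given with and without them, and several rank changes are given without 92-1. Other results include them unless stated. Markers of the labelled cell type had such a strong peak within 1 kb of an end in all 3 DMSO lists for 4 of 6 genes in 22RV1, 4 of 6 in RD, 4 of 6 in DU4475 and 5 of 7 in MV411. The count was 1 of 7 in A375, 0 of 7 in 92-1 and 0 of 6 in HCT116, and with all deposited peaks it was 5 of 7, 3 of 7 and 2 of 6. Such markers were not particular to the labelled line. The DU4475 markers had strong peaks for 5 of 6 genes in 22RV1, the HCT116 markers for 4 of 6 in 22RV1 and in DU4475, and the melanoma markers for 3 of 7 in 22RV1, RD, DU4475 and MV411.

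SMARCA4 and SMARCA2 are the alternative ATPase subunits of BAF (SWI/SNF) complexes, which use ATP to slide or evict nucleosomes. Their activity is best known for keeping distal enhancers open. Promoters of widely expressed genes commonly hold a nucleosome-depleted stretch just upstream of the start site, often rich in CpG dinucleotides and bound by factors such as SP1, NF-Y and ETS proteins.

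Sequences of regions on which the results turn are shown to let the motif matches be read beside the rank changes. For each gene below, the letters are the bases of the region that lie upstream of the RefSeq start (GRCh38.p14), up to 150 of those nearest to it, 5′ to 3′ on the strand of the gene. Capitals mark matches, on either strand, to 11 motifs. SP and KLF factors are known to bind GGGCGG and NF-Y to bind CCAAT. ETS factors bind the letters CCGGAAG, and AP-1 binds the letters TGANTCA. The TATA box was searched as TATAAA and the E-box as CACGTG. CREB and ATF factors were searched as TGACGTCA, YY1 was searched as AAGATGGCG and E2F was searched as TTTCGCGC. The palindromic motifs of NRF1 and of ZBTB33 and related factors complete the set. Motifs may overlap one another, and each was counted by itself. The first set holds regions with the largest mean decrease of rank with FHT-1015, at chr14:96204689-96204838 on the plus strand for BDKRB2, chr2:45009502-45009651 on the minus strand for SIX2, chr7:95772404-95772553 on the plus strand for DYNC1I1, chr10:121598445-121598594 on the minus strand for FGFR2 and chr2:119223696-119223833 on the plus strand for STEAP3.
BDKRB2: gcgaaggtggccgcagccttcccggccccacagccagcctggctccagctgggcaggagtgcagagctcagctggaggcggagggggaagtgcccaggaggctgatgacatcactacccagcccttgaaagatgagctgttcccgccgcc
SIX2: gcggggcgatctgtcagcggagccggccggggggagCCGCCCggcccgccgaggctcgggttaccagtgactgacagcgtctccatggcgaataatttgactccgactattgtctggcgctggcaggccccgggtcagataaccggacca
DYNC1I1: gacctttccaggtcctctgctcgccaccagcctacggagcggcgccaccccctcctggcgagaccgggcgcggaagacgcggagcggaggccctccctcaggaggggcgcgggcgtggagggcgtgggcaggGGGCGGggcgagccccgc
FGFR2: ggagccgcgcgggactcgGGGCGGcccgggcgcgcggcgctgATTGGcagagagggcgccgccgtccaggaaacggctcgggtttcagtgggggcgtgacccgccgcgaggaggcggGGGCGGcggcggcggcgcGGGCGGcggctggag
STEAP3: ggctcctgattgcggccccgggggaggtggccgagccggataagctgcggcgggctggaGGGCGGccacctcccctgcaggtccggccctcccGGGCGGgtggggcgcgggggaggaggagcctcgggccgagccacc

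The second set holds regions with a high mean increase of rank, among them a ribosomal protein gene, at chr17:21284561-21284710 on the plus strand for MAP2K3, chr17:1456364-1456480 on the minus strand for CRK, chr17:45061130-45061279 on the minus strand for DCAKD, chr2:231464485-231464634 on the minus strand for NCL, chr12:122526970-122527119 on the minus strand for RSRC2 and chr12:120201184-120201333 on the minus strand for RPLP0.
MAP2K3: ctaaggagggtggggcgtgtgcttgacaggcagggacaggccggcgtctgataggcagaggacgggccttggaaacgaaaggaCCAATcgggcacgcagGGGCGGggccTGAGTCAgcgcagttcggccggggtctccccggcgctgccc
CRK: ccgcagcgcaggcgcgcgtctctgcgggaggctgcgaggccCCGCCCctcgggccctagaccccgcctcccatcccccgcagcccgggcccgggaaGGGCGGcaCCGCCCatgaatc
DCAKD: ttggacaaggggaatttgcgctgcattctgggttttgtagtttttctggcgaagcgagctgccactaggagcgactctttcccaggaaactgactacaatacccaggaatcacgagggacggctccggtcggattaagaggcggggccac
NCL: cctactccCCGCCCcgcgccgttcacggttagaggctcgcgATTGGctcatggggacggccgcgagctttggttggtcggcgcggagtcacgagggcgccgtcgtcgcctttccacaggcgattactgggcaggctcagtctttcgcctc
RSRC2: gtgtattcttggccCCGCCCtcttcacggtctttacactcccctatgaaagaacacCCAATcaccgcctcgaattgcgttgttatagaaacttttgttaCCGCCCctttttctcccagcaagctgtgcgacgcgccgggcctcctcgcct
RPLP0: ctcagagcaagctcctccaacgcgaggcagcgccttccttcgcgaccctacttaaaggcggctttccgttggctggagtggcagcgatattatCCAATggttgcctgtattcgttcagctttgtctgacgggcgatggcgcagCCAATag

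The third set holds regions near the top of nearly every list, at chr1:184754859-184755008 on the minus strand for EDEM3, chr1:248838074-248838223 on the plus strand for ZNF672 and chr7:149028491-149028640 on the minus strand for PDIA4.
EDEM3: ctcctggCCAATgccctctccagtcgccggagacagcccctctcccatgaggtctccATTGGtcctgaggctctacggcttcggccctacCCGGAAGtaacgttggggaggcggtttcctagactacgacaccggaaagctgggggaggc
ZNF672: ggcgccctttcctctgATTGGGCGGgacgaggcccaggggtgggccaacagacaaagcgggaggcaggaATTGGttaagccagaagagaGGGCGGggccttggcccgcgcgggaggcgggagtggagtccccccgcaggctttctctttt
PDIA4: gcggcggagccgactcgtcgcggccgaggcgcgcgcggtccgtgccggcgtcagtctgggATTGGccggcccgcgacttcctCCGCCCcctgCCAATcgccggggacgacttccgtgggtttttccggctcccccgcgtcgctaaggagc
In these stretches the BDKRB2 region, of the first set, and the DCAKD region, of the second, held no match to the motifs, and 6 and 9 CpG dinucleotides. The DYNC1I1, SIX2 and STEAP3 regions held GGGCGG only. All 3 of the strongest regions shown held a CCAAT match, which overlapped a GGGCGG match in ZNF672.

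Over all regions the motif content differed from that of other promoters, as a description without a test. A RefSeq promoter window, 250 bases before to 50 after a start, overlapped 3912 regions by at least 50 bp, which gave 3891 distinct promoters. GGGCGG occurred in 80.7% of these, against 51.2% of the 11921 promoters without a region and 58.5% of all 15812. CCAAT occurred in 46.7% against 32.9% and CCGGAAG in 23.9% against 11.01%. AAGATGGCG (4.99% against 2.01%), TGACGTCA (3.96% against 2.15%) and the NRF1 motif (2.96% against 1.37%) were also more frequent. TATAAA was less frequent, in 3.06% against 11.8%, and so was TGANTCA, in 2.88% against 6.69%. The median number of CpG dinucleotides in a window was 29 against 18, and the median GC content was 66.7% against 60.7%. A match is a match of letters and not a bound site.

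The regions lay just upstream of gene starts. Of the 5681, 4807 (84.6%) were near a start, 44 were near only the far end of a gene, and for 830 the strand of the gene was not matched. Over the 4731 within 1 kb of a start in the promoter table, the centre lay at a median of 75.5 bp upstream, 84.4% were centred upstream, and 87.9% lay within 250 bp. Starts on both strands were found within 1 kb for 708 regions (12.5%). Widths ran from 100 to 797 bp with a median of 221 bp, and the distal regions had a median of 199 bp. The widest lay at TOMM40 (797 bp), a channel of the mitochondrial outer membrane, OSBP (796 bp), a sterol-binding protein, IQUB (765 bp), UBP1 (729 bp) and PRKRA (704 bp).

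The thresholds of the rule cut a continuous range. The last regions inside 1 kb were at TMTC2 (1000 bp from the end), TMEM87B (994.5 bp) and CAMKK2 (993.5 bp), covered in 21, 19 and 19 of the 21 FHT-1015 lists. The first outside were at SLC2A1 (1000.5 bp), CLDND2 (1004.5 bp) and SLC35C1 (1006 bp), covered in 20, 21 and 21. Regions of exactly 100 bp included those at PPP1CA, ATF7 and AGBL5, covered in 20, 20 and 19 lists, and stretches of 99 bp at ANKRD35, MAPK8IP3 and MARF1 were covered in 20 each.

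With FHT-1015 nearly all regions stayed in the lists of 6 lines. All 18 FHT-1015 lists other than those of 92-1 covered 5322 of the 5681 regions (93.7%), and all 21 lists covered 2621 (46.1%). All 3 FHT-1015 lists of a line covered 99.7% of the regions in A375 and in DU4475, 99.3% in 22RV1, 98.9% in MV411, 98.1% in HCT116, 97.0% in RD and 47.4% in 92-1. A region absent from all 3 lists was rare: 61 in 92-1, 5 in MV411, 3 each in RD and HCT116, 2 each in 22RV1 and DU4475, and 1 in A375. By the number of FHT-1015 lists, 1943 regions were in 20, 894 in 19, 160 in 18, 37 in 17 and 26 in fewer than 17. Since the rule fixed coverage in DMSO at every region, these counts are a description.

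To compare coverage between treatments, the regions were chosen anew for each line on the 18 DMSO lists of the other 6 lines, so that no list of the compared line entered the choice. This gave 8049 regions for 92-1 and 5741 to 6371 for the others. Coverage was 99.6%, 99.8% and 99.8% in the DMSO lists of 22RV1 and 99.4%, 99.6% and 99.4% with FHT-1015, and in RD it was 99.6%, 99.6% and 99.4% against 98.5%, 97.1% and 99.3%. In 92-1 it was 97.6%, 90.7% and 82.3% with DMSO and 94.5%, 63.0% and 54.3% with FHT-1015. The groups did not overlap in 22RV1 (a difference of −0.267 percentage points), RD (−1.24), DU4475 (−0.150) and MV411 (−0.562), all lower with FHT-1015. They overlapped in 92-1 (−19.6), A375 (0.0637) and HCT116 (0.638). In each of the 4 lines without overlap the exact two-sided permutation test gave p = 0.1, the smallest that 3 against 3 allows, and 0.175 after adjustment over 7 lines. The mean difference over lines was −3.02 points and was not larger than the spread between replicates (permutation within lines, two-sided, p = 0.189). Without 92-1 it was −0.252 points (permutation p = 0.169), without FHT-1015 replicates 2 and 3 of 92-1 it was 0.396 (permutation p = 0.739), and without FHT-1015 replicate 1 of 92-1 it was −4.73 (permutation p = 0.00813).

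Among the strongest peaks the regions took a larger share with FHT-1015. The share of regions that held one of the 10000 strongest summits of a list was 43.1%, 41.4% and 41.8% in the DMSO lists of MV411 and 64.7%, 64.4% and 64.9% in its FHT-1015 lists. In 22RV1 it was 56.6%, 56.6% and 57.0% against 71.2%, 72.0% and 71.8%. In A375 the means were 49.7% ± 1.12 and 58.9% ± 3.28 (SD, n = 3), and in HCT116 55.2% ± 1.21 and 61.7% ± 0.842 (SD, n = 3). The groups did not overlap in these 4 lines (exact permutation p = 0.1 each, 0.175 adjusted over 7 lines). They overlapped in RD (57.8% ± 0.523 and 59.8% ± 3.16), DU4475 (62.7% ± 1.24 and 62.6% ± 0.468) and 92-1 (29.8% ± 2.80 and 34.7% ± 17.7; SD, n = 3 in each). The mean over lines was 8.59 points higher with FHT-1015 (permutation within lines, two-sided, p = 8e-05), higher in 6 of 7 lines. In 92-1 the lists gave 31.5%, 31.3% and 26.5% with DMSO and 54.6%, 28.9% and 20.6% with FHT-1015. The higher mean of that line thus rests on FHT-1015 replicate 1. With the 20000 strongest summits the difference was 5.18 points (permutation p = 0.0339). The number of summits was fixed, so a share is relative to the other peaks of a list. No such share is given for distal regions.

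The median position of the regions among all peaks of a list, counted from the strongest, lay between 10286 and 10914 in the DMSO lists of MV411 and between 5158 and 5215 in its FHT-1015 lists. In 22RV1 it lay between 6976 and 7168 and then between 4473 and 4634. In both lines fewer peaks had a −log10 q of at least 5 with FHT-1015: 105420 to 121774 with DMSO and 52664 to 53585 with FHT-1015 in MV411, and 58095 to 79003 and then 37389 to 41820 in 22RV1. This number was also lower, without overlap, in lines whose shares overlapped: 41806 to 48752 and then 13760 to 28354 in RD, and 48864 to 64475 and then 34566 to 45254 in DU4475. It overlapped between treatments in A375 (26365 to 65602 and 27964 to 67237) and HCT116 (22667 to 25702 and 17552 to 27364), where the shares did not overlap. Background pileup was 0.400 to 0.495 and then 0.260 to 0.270 reads in MV411, and 0.532 to 0.702 and then 0.768 to 1.02 in 22RV1. The part of these in the shares was not tested. The median −log10 p of the regions themselves overlapped between treatments in the lines whose shares did not. It was 55.2 to 69.0 with DMSO and 56.9 to 57.4 with FHT-1015 in MV411, and 43.6 to 65.5 and then 53.6 to 65.2 in 22RV1. In A375 it was 14.7 to 29.2 and then 22.3 to 50.2, and in HCT116 17.7 to 21.3 and then 19.3 to 28.8. In bulk lists a weaker peak cannot be told apart from fewer cells with an open site. Tests between pairs of lines, 21 for each measure, passed for none after adjustment (smallest exact permutation p = 0.05, adjusted 0.263, for the share among the strongest summits, and 0.03, adjusted 0.315, for coverage).

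**Figure D1:**
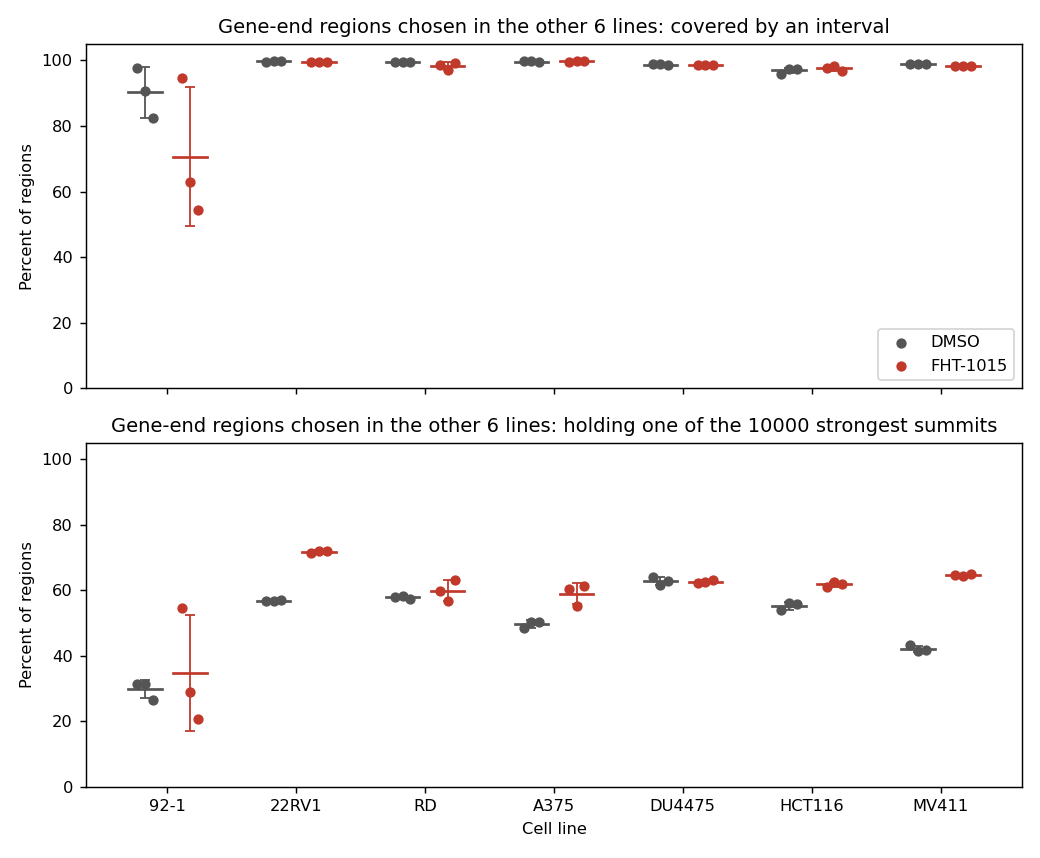
Percent of gene-end regions covered by an interval (top) and holding one of the 10000 strongest summits (bottom) by cell line, with regions chosen on the DMSO lists of the other 6 lines. Points are lists, bars the mean and SD of 3. The MV411 means are 42.1% with DMSO and 64.7% with FHT-1015 in the lower panel, and the 92-1 FHT-1015 points spread from 54.3% to 94.5% in the upper one.

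Gene-end regions were covered in the FHT-1015 lists more often than distal regions chosen by the same rule. The rule fixed coverage in DMSO at every region of both sets, so this comparison has no DMSO counterpart. Whether the difference is a response to FHT-1015 was not tested. In all 21 FHT-1015 lists the percent covered was higher at gene ends. The mean difference over lines was 1.61 percentage points (exact permutation of signs over 7 lines, two-sided, p = 0.0156, the smallest that 7 lines allow). It was widest in RD, where 98.8% ± 1.04 of gene-end and 94.4% ± 3.62 of distal regions were covered (SD, n = 3), a difference of 4.47. In the other lines the difference was 1.95 in 92-1, 1.53 in DU4475, 1.06 in HCT116, 0.856 in 22RV1, 0.793 in A375 and 0.640 in MV411. Gene-end regions were wider, and among regions of at least 200 bp the difference was 0.356 points (exact sign permutation p = 0.0312). With peaks of −log10 q of at least 5 it was 5.07 points (exact sign permutation p = 0.0312). With pileups thinned to the lowest background of each line, which left out 92-1, it was 5.30 (exact sign permutation p = 0.0312, the smallest that 6 lines allow). The thinned lists kept only peaks with −log10 p of at least 5, a stricter threshold than in the deposited lists, and the strongest peaks were not thinned. The part of this threshold in the value was not tested.

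**Figure D2:**
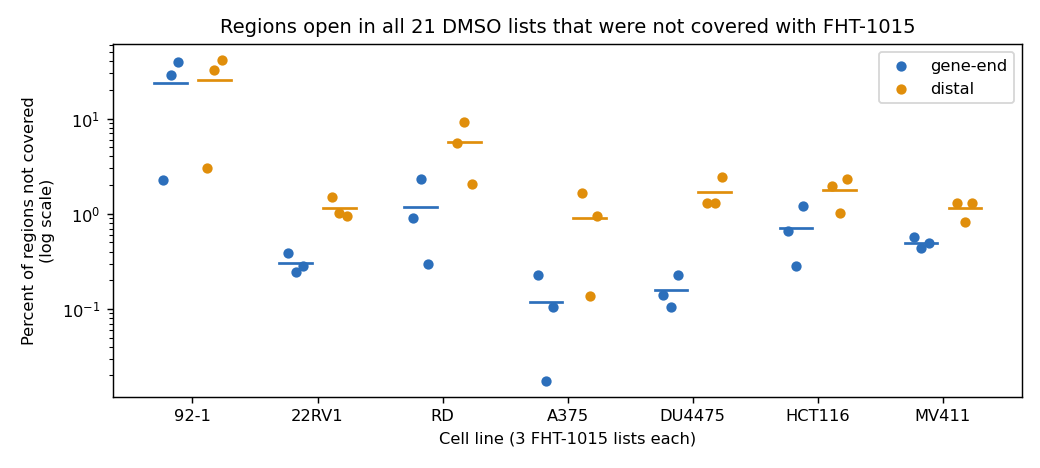
Percent of regions open in all 21 DMSO lists that an FHT-1015 list did not cover, on a log scale, at gene ends (blue) and distal (orange). Points are lists and lines are means of 3. The orange point of a list lies above its blue point in all 21 lists, and all but the 92-1 lists lie under 10%.

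Few gene-end regions changed rank beyond the spread between replicates in any line. Ranks were compared among a fixed set of 29978 regions covered in at least 21 of the 42 lists, with limma on normal scores of the rank and Benjamini-Hochberg adjustment over all 29978, at an adjusted p below 0.05. Of the 5407 regions chosen without 22RV1, 11 were higher (0.203%; 0.344% of all 29978) and 46 lower (0.851%; 2.56% of all) with FHT-1015. Of the 5477 chosen without MV411, 15 were higher (0.274%; 0.374% of all) and 33 lower (0.603%; 2.08% of all). In RD 1 was higher (0.0567% of all were) and 7 lower (0.244%), in A375 1 higher (0.153%) and 4 lower (0.777%), and in DU4475 0 higher (0.0467%) and 1 lower (0.0867%). HCT116 and 92-1 had none in either direction by limma (0.0% of all). At an unadjusted limma p below 0.05 there were 836 higher and 248 lower in 22RV1, 599 and 290 in MV411, and 351 and 308 in RD. There were 208 and 65 in HCT116, 231 and 206 in 92-1, 197 and 188 in A375, and 131 and 140 in DU4475. In 22RV1 and MV411 this split ran the other way from that of the adjusted calls. The shares of all 29978 regions at the unadjusted p are not given here. By adjusted p, the lower calls at gene ends made up a smaller percent than among all regions in each of the 5 lines with calls. The same held for the higher calls, so calls in either direction were rarer at gene ends. The difference between these shares was not tested.

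Summed over lines the calls were 28 higher and 91 lower, so that 23.5% were higher. This split turned when the fixed set was widened to bases covered in at least 11 of the 42 lists, to 219 higher and 85 lower (72%). Of these MV411 gave 161 higher and 34 lower among 5412 regions, against 838 higher and 3121 lower among all 75018. With peaks of −log10 q of at least 5 the calls were 101 and 220. Among them were 1 higher and 6 lower of 7409 regions in 92-1, against 1 and 120 of all 29978. The wider set gave 1 higher of 5811 in HCT116, against 122 of all 75018. No share of all regions is given for the summed counts. The count of higher calls also rests on single libraries: without any 1 list of MV411 it was 13, and without any 1 list of 22RV1 it was 17 or 18. The count of lower calls was 45 without DMSO replicate 2 of 22RV1, and 58 without DMSO replicate 3 of 22RV1 or DMSO replicate 1 or 2 of MV411. Of the 5681 regions open in all DMSO lists, 86 were lower and 26 higher in at least 1 line. In 2 lines 6 were lower, in 3 lines 1 was, and none was higher in more than 1. For these counts over lines no share of all 29978 regions is given, so nothing particular to gene ends is read from them. In the single lines with calls, lower and higher calls were both rarer at gene ends than among all regions, as given above.

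Direction over lines was read for the 5359 segments of the fixed set that hold a region. In all 7 lines 109 were lower (2.03%; 1.61% of all 29978) and 272 higher (5.08%; 3.75% of all). In at least 4 lines the 3 FHT-1015 lists lay below the 3 DMSO lists without overlap for 57 (1.06%; 1.87% of all) and above them for 65 (1.21%; 0.684% of all). These counts had no test. Within a line, the share of all 29978 regions whose FHT-1015 lists lay wholly below, or wholly above, the DMSO lists sets the scale for single regions. It was 12.5% below and 16.6% above in 22RV1, 10.8% and 17.5% in MV411, and 9.41% and 20.2% in RD. In the other lines it was 9.69% and 7.97% in A375, 7.61% and 6.99% in 92-1, 6.11% and 6.98% in DU4475, and 5.69% and 5.77% in HCT116. A single line without overlap is thus common among all regions.

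For single regions, rank is given below as a percentile among the 5681, 100 being the region whose peak had the highest −log10 p in a list. Regions outside a list share the lowest place, which in FHT-1015 replicates 2 and 3 of 92-1, where many are outside, is the 14.5th and 19.6th percentile. The median SD between replicates was 4.51 to 18.8 percentile points. The likeness in the order of the regions differed between lines. Spearman's rho between lists averaged 0.953 among DMSO lists, 0.955 among FHT-1015 lists and 0.949 across treatments in DU4475, and 0.886, 0.897 and 0.849 in MV411. In 22RV1 these were 0.884, 0.903 and 0.828, in RD 0.855, 0.810 and 0.784, in A375 0.763, 0.810 and 0.754, and in HCT116 0.678, 0.722 and 0.691. In 92-1 they were 0.594, 0.398 and 0.467. These are descriptions over 5681 regions of the same libraries. Averaged over lines, the change in percentile ran from −37.5 to 21.7 with a median of 0.478, and its 5th and 95th percentiles were −11.8 and 10.1.

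Regions with the largest mean decrease in 6 lines had a median change below 0 in the line left out as well. When the 100 regions with the largest mean decrease in 6 lines were read in the line left out, their median change was −16.3 percentile points in 22RV1 (86 of 100 lower), −14.7 in 92-1 (75), −13.0 in A375 (91), −12.8 in RD (86), −11.5 in MV411 (89), −6.37 in HCT116 (67) and −1.73 in DU4475 (74). The 100 with the largest mean increase had a median change of 8.19 in 92-1 (67 of 100 higher), 8.14 in RD (79), 6.37 in 22RV1 (74), 5.87 in HCT116 (66), 5.48 in A375 (75), 4.46 in MV411 (72) and 1.30 in DU4475 (61). Of all regions, 44.6% to 50.03% were lower in a line. The 5681 regions themselves were chosen on the DMSO lists of every line, the line read included. Only the picking of the 100 left that line out, so these values are a description without a test. Pearson's r of the change between 2 lines over the 5681 regions ran from 0.0219 (DU4475 and HCT116) to 0.320 (22RV1 and MV411).

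**Figure D3:**
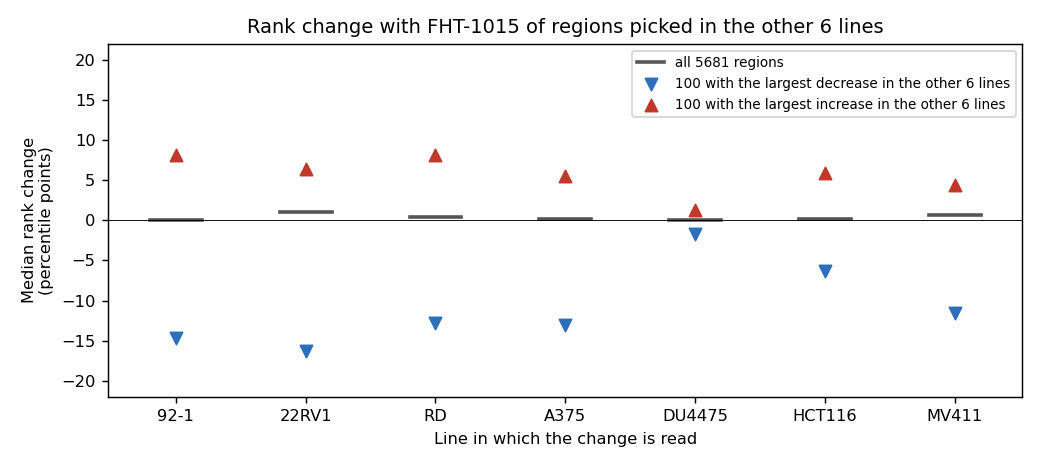
Median rank change with FHT-1015, in percentile points, read in 1 line for the 100 regions with the largest decrease (triangles down) or increase (triangles up) in the other 6 lines. Bars are the median of all 5681 regions. The triangles pointing down run from −16.3 in 22RV1 to −1.73 in DU4475, and all those pointing up lie above 0.

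The 10 regions with the largest mean decrease were picked for this change, so their values and the lines in which they passed the limma test describe them and support nothing further. BDKRB2, the bradykinin receptor B2, has its region at chr14:96204681-96204879, centred 59 bp upstream of the start. It was in 10 of the 21 FHT-1015 lists, the fewest of all regions. In 22RV1 its percentiles were 93.0, 86.3 and 88.8 with DMSO and 6.68, 1.05 and 0.766 with FHT-1015, and in HCT116 55.5, 63.5 and 68.1 against 1.68, 3.65 and 9.73. In MV411 they were 27.6, 27.3 and 18.9 against 0.282, 0.220 and 1.12. In DU4475, where it was already at or under 0.220 with DMSO, the groups overlapped. The lists of the other 6 lines did not overlap, and it passed in 22RV1 (limma adjusted p = 0.0072), A375 (adjusted p = 0.0432) and MV411 (adjusted p = 0.029), the only region lower in 3 lines. In A375 the change was only −2.62 points and lay near the floor, as no FHT-1015 list of that line held the region.

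DYNC1I1, an intermediate chain of the dynein motor, had the largest mean decrease, −37.5 ± 28.4 percentile points (SD over 7 lines). Its region is at chr7:95772384-95772565, centred 79.5 bp upstream. The percentiles in 22RV1 were 93.1, 93.9 and 97.6 with DMSO and 31.0, 19.4 and 19.8 with FHT-1015. In MV411 they were 71.1, 79.3 and 72.0 against 8.04, 7.28 and 7.75, and in RD 30.1, 55.4 and 39.99 against 3.49, 16.9 and 9.39. The lists overlapped in A375 and in HCT116, where the percentiles were at most 8.99 in all 6 lists. CLDN12, a claudin of cell contacts, had a mean change of −36.8 points and passed, lower, in 22RV1 and MV411. In MV411 it was at 99.5, 99.4 and 99.6 with DMSO and at 17.9, 65.3 and 46.7 with FHT-1015. In HCT116 its mean differed by −0.590 points and single lists ran from 3.62 to 63.3 with DMSO.

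FGFR2, a receptor tyrosine kinase for fibroblast growth factors, was lower in 7 of 7 lines, by 32.4 points on average. Its region, chr10:121598356-121598688, had percentiles of 95.03, 96.4 and 97.4 with DMSO and 28.7, 45.3 and 26.7 with FHT-1015 in 22RV1. In RD they were 54.1, 69.9 and 62.3 against 3.67, 6.84 and 4.22, and it passed in these 2 lines (limma adjusted p = 0.00786 and 0.0411). Only in DU4475 did its lists overlap. SIX2, a homeodomain factor of nephron progenitors, was at 85.7, 61.0 and 68.7 with DMSO and 2.09, 0.484 and 1.15 with FHT-1015 in A375, and its lists overlapped in RD, where the mean changed by 1.52 points. STEAP3, a ferrireductase of endosomes, was at 67.0, 93.5 and 80.01 against 1.24, 14.8 and 15.7 in RD, and its mean was 4.28 points higher in HCT116.

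The other 4 of the 10 largest mean decreases were at VWA5A (−31.8), GPR37 (−31.7), an orphan receptor, CD55 (−29.6), which limits complement on the cell surface, and ANTXR2 (−29.5), a collagen-binding receptor also used by anthrax toxin. CD55 and ANTXR2 were lower in 7 of 7 lines and passed the test in none. GPR37 stayed in all 21 FHT-1015 lists. For the 10 together the mean change was between 25.2 and 37.1 points lower when 92-1 was left out.

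The regions in the fewest FHT-1015 lists after BDKRB2 were at FAM20B (11 lists), a xylose kinase of proteoglycan synthesis, TAGLN2 (13), an actin-binding protein, SVOP (14), VWA5B2 (14), TBC1D9, NGFR, SIX2, MYRIP and SLCO3A1 (15 each). With DMSO the mean percentile was 14.4 at TBC1D9, 14.8 at SVOP, 15.1 at NGFR, 17.1 at VWA5B2, 29.8 at TAGLN2, 30.2 at FAM20B and 32.1 at SLCO3A1. It was 43.4 at MYRIP and 44.95 at SIX2. TAGLN2 was absent from all 3 FHT-1015 lists of MV411, FAM20B from those of RD and DU4475, and SLCO3A1 from those of 22RV1.

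Of the 10 regions with the largest mean increase, picked in the same way, none passed the limma test in a line. MAP2K3, a kinase that activates p38, was higher in mean percentile in 7 of 7 lines, by 19.8 ± 11.01 points (SD over lines). Its percentiles in A375 were 25.5, 10.5 and 26.8 with DMSO and 67.1, 58.6 and 50.7 with FHT-1015, and in MV411 63.7, 55.4 and 51.8 against 82.3, 82.5 and 67.3. In RD they were 0.502, 2.60 and 7.28 against 13.1, 20.7 and 15.8. Its lists overlapped in 22RV1 only. NCL, which encodes nucleolin, was at 76.3, 62.3 and 63.2 with DMSO and 86.3, 85.7 and 92.8 with FHT-1015 in MV411. The groups did not overlap in 22RV1, HCT116 and MV411. They overlapped in the other 4 lines, and in RD its DMSO lists were at 97.0 or more.

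The other 8 had mean changes of 21.7 at PDE8A, a cAMP phosphodiesterase, 18.7 at ZRANB3, a DNA translocase of stalled forks, 18.6 at MAN2C1, an alpha-mannosidase, 18.4 at CRK, a signalling adaptor, 18.001 at PPAT, an enzyme of purine synthesis whose region also lies at the start of PAICS, 17.5 at DCAKD, 17.4 at RSRC2 and 17.1 at AFTPH, a trafficking protein. All 10 were in all 21 FHT-1015 lists. Several of these values rest in part on 92-1. At PDE8A the mean in that line went from 6.16 to 61.1, and the mean change was 16.1 without it. Without 92-1 the mean change was 12.97 at MAN2C1, 12.9 at PPAT, 13.7 at RSRC2 and 13.6 at AFTPH.

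At the top of the lists, the 5 regions with the highest mean percentile in FHT-1015 lists were at EDEM3 (97.9), a mannosidase of the endoplasmic reticulum, ZNF672 (97.7), a zinc finger protein, PANK3 (97.5), a kinase of coenzyme A synthesis, PDIA4 (96.9), a disulfide isomerase, and G3BP1 (96.7), a stress granule protein. Their mean percentiles with DMSO were 96.8, 97.0, 98.0, 97.7 and 96.0. They were chosen for their rank with FHT-1015 and lie near the ceiling of 100, so nothing is read from these small differences. Single lists went down to 84.4 with DMSO, at EDEM3, and to 87.9 with FHT-1015, at PDIA4.

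**Figure D4:**
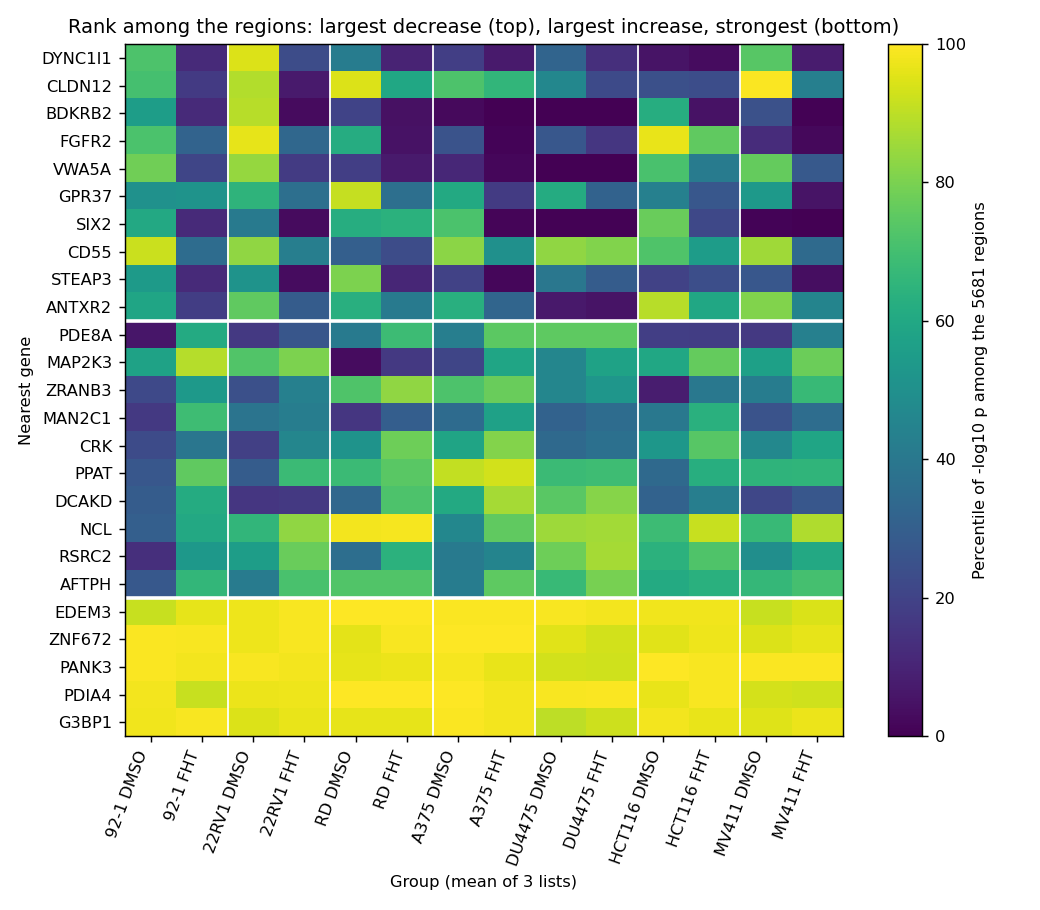
Mean percentile of −log10 p among the 5681 regions in each of the 14 groups, for the 10 regions with the largest decrease (top block), the 10 with the largest increase (middle) and the 5 strongest (bottom). In the top block the FHT column is darker than the DMSO column beside it in most pairs, and the bottom block is near 100 throughout.

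Other features of the regions at the extremes of the rank change are a description. Of the 568 regions with the largest mean decrease, 27.6% were in all 21 FHT-1015 lists and 7.22% had starts on both strands, against 60.7% and 17.1% of the 568 with the largest mean increase and 46.1% and 12.5% of all. The first number follows in part from how these regions were chosen. Median widths were 225, 197 and 221 bp. Each set held 389 promoters, and CCAAT was found in 34.7% of those with a decrease and 52.7% of those with an increase, CACGTG in 6.17% and 12.3%, AAGATGGCG in 2.83% and 6.17%, and TGACGTCA in 1.54% and 3.86%. GGGCGG was found in 82.5% and 83.8% and TGANTCA in 3.09% and 3.34%. Without 92-1 the CCAAT shares were 34.7% and 53.0%. These shares have no test, and nothing about the factors follows from them.

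Gene groups were read from lists of genes, and their medians stand beside 0.478 percentile points for all regions. Of 79 cytosolic ribosomal protein genes, 43 (54.4%) had a region. The 46 regions had a median mean change of 3.72, and 37 were higher and 9 lower, with 1 passing the limma test (RPS13, higher in 22RV1). The median was above 0 in each of the 7 lines, from 1.73 in HCT116 to 5.60 in 22RV1. RPLP0, a protein of the ribosomal stalk, was the highest at 16.5 and was higher in 7 of 7 lines, and RPSA, a protein of the small subunit, was the lowest at −10.8. In 92-1 the RPLP0 region was at 12.7, 28.01 and 23.6 with DMSO and at 63.6, 66.5 and 56.3 with FHT-1015. Its groups did not overlap in 92-1 and A375, and they overlapped in the other 5 lines. Leaving out 92-1, the mean change at RPLP0 was 12.4.

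Mitochondrial ribosomal protein genes had regions at 43 of 77 genes (55.8%), with a median change of 3.08 over 44 regions and a median above 0 in each line. MRPL4 was the highest at 13.1 and MRPS5 the lowest at −7.46. Of the 44, 32 were higher and 12 lower, against 3026 higher and 2655 lower of all regions. The median was 4.15 for the proteasome (15 regions higher and 5 lower) and 3.18 for the core spliceosome (22 and 5). It was 2.61 for the aminoacyl-tRNA synthetases (18 and 14), 1.91 for RNA polymerase II and its general factors (13 and 10), and 2.20 for DNA replication (17 and 7). For heat shock proteins and the chaperonin it was 3.69 (19 and 5), and 1 region, at CCT7, passed the test, higher in A375. Each of these 6 lists had a median below 0 in at least 1 line. In HCT116 these were the proteasome (−4.84), the spliceosome (−1.44) and the polymerase list (−2.66). In 92-1 they were the polymerase (−1.95) and replication lists (−1.96), in RD the synthetases (−0.933) and replication (−0.468), and in DU4475 heat shock proteins (−0.528) and replication (−0.0851). No region of these lists was lower by the limma test in any line, and in all, 0.458% of the 5681 regions were higher and 1.51% lower in at least 1 line.

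Replication-dependent histone genes, which are transcribed in S phase, had the highest median, 6.35 over 9 regions. All 9 had a mean change above 0, from 0.215 at H4C11 to 8.46 at H2AC18, and none passed the limma test. The list median was 17.9 in A375, 12.1 in 92-1 and −8.51 in HCT116. Several of these genes are near-identical copies in clusters, and reads can be split between copies. Only 13 of 59 histone genes (22.0%) had a region.

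Genes that respond within minutes to stimuli showed no common direction: 10 of 18 regions of immediate early genes were higher, with a median of 0.447. KLF2 (−13.9) and NR4A2 (−13.9) were lower in 7 of 7 lines and KLF6 (13.6) higher in 7 of 7, and none passed the limma test. KLF2 was at 45.4, 42.8 and 36.6 with DMSO and 7.48, 20.4 and 13.3 with FHT-1015 in 22RV1, the one line where its lists did not overlap.

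Of the 29 genes of BAF complex subunits, 12 (41.4%) had a region, with a median change of 1.24 and 6 of 12 higher. Without 92-1 the median was −0.153. SMARCA2, 1 of the 2 targets of FHT-1015, was at a mean of 76.6 with DMSO and 70.1 with FHT-1015, a change of −6.47 ± 7.86 (SD over 7 lines). SS18 was at 35.1 and 47.5, BCL7B at 65.9 and 54.8, and SMARCD2 at 52.1 and 61.9, the only one to pass the limma test, higher in 22RV1. No region of the rule lay at SMARCA4. Genes of lineage identity were nearly absent from the regions: 2 of 41 (4.88%) had one, among them MITF, a melanocyte factor, with a mean change of 1.64.

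Apart from the BAF list without 92-1, the medians of the 11 lists other than lineage genes had the same sign under the 2 other scales tried, normal scores of the rank among the 29978 regions (0.0436 to 0.187, and 0.0468 for all gene-end regions) and quantile-normalised log2(−log10 p + 1) (0.0685 to 0.279, and 0.0614 for all gene-end regions). Leaving out 92-1, the medians in percentile points were 4.17 for cytosolic and 3.36 for mitochondrial ribosomal proteins, 3.76 for the spliceosome and 2.63 for the proteasome. They were 5.23 for histones, 3.06 for heat shock proteins, 2.02 for the synthetases, 1.53 for replication and 1.52 for the polymerase list. For immediate early genes the median was 0.3005, against 0.53 for all regions.

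**Figure D5:**
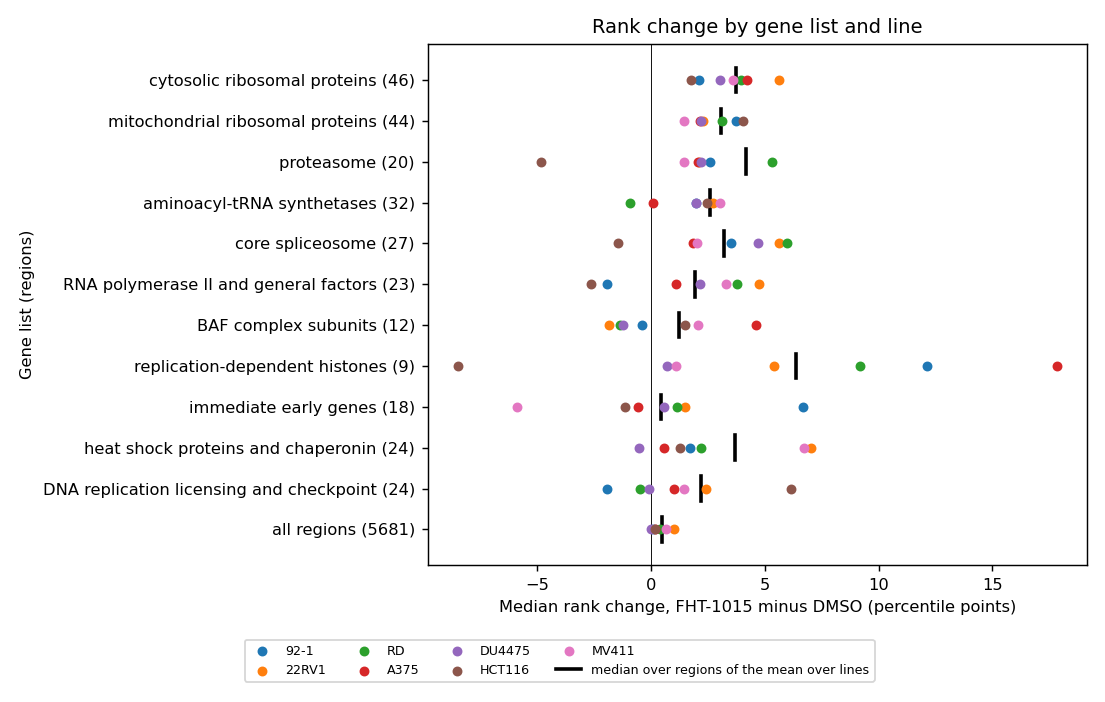
Median rank change (FHT-1015 minus DMSO, percentile points) of the regions of each gene list in each line (points) and for the mean over lines (black bars), with the number of regions in brackets. The points of cytosolic and mitochondrial ribosomal protein genes all lie above 0, and those of histone genes run from −8.51 to 17.9.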

How the data were processed

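ATAC-seq was done on 42 samples of 7 cell lines. Libraries were made by the published ATAC-seq method with bead size selection on both sides, per the labels' protocols. Bowtie2, Picard, MACS2, limma and HOMER and the build hg38 are named, without versions or roles, per the submitters' processing notes. Not given in the sources used here are any shift of reads for the transposase and the settings of the peak caller. Per sample, the authors deposited one narrowPeak list, so replicates were not pooled. Each deposited peak carries a fold, the linear ratio of pileup to background made by the authors' peak caller. The deposited p-value and q-value are on the −log10 scale, also from the authors' peak caller. A score that the authors deposited beside them equals 10 times the −log10 p and played no role here. All peak values are the authors' and served to rank or filter peaks within a list. The design text names 6 of the lines, and MV411 was taken from its sample labels. No 2 lists of the same line shared more than 6.37% of the intervals of the shorter list. Lists of different lines were not compared in this way.

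Gene ends and strands came from RefSeq (GRCh38.p14). Exon and intron annotation was not used here. The regions and the gene lists were chosen with earlier results of these data known. Regions were named by the nearest gene end. Named were the 10 in the fewest FHT-1015 lists, the 10 with the largest mean decrease and increase of rank, the 5 strongest and 5 widest, the extremes of each gene list and those next to the thresholds of the rule. SMARCD2, RPS13, CCT7, NR4A2 and SMARCA2 were named after their values were seen. Lists were compared by permutation within lines (100000 draws), exact permutation of 3 against 3, exact permutation of signs over 7 lines, and limma 3.58.1 in R 4.3.3 on normal scores of ranks, with Benjamini-Hochberg adjustment. Python 3.11.15 with numpy 2.4.6, pandas 2.3.3 and scipy 1.17.1 was used. The functions were tested on simulated data. Relative depth was recovered from the fold and p of each peak and limits every statement on absence.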

Additional observations from a re-analysis of the deposited data

How the results depend on the processing

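The higher share among the 10000 strongest summits kept its direction and its side of the threshold under all alternatives run, with differences of 7.17 to 9.60 percentage points when 1 list was left out. The gene-end minus distal difference kept both as well, at 1.44 to 1.81 when 1 list was left out. Coverage was −4.73 to −1.85 when 1 list was left out, and without FHT-1015 replicates 2 and 3 of 92-1, an alternative chosen after seeing the data, it was 0.396, the opposite sign. The calls of limma were 13 to 28 higher and 45 to 92 lower when 1 list was left out, where a lone pair of lists is assumed to vary like the rest of the line. With peaks of −log10 q of at least 5, applied to ranks and coverage but not to the choice of regions, the calls were 101 higher and 220 lower, and with bases covered in at least 11 of the 42 lists 219 were higher. The cause of these moves was not tested.

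Replicates in the groups share numbers, but the numbers did not pair the samples: of 21 same-number pairs, 2 had a correlation of deviations over 0.1 (−0.0342 to 0.201), and 9 of 21 correlated best with their own number. With a replicate block the coverage difference of −3.02 passed (permutation p = 0.0274), the summit share stayed at 8.59 (permutation p = 0.00028), and limma called 3 regions higher and 22 lower. All 3 and 7 of the 22 were in A375, 10 were in 22RV1 and 5 in RD. With the block limma called none of the 29978 regions in MV411, so every MV411 call, that at BDKRB2 included, was lost. No paired analysis was possible for the gene-end minus distal difference because it uses FHT-1015 lists only. Thinning to equal background was not run for 92-1. Lists hold no read counts, so a region outside a list of low background may still be open, and ranks of weak peaks repeat poorly in 92-1 and HCT116.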
